A study of Brachypodium distachyon with 45 samples.

Results

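Xyloglucan endotransglucosylase/hydrolases (XTHs) are glycosyl hydrolases of family GH16 that act on xyloglucan, the hemicellulose that ties cellulose microfibrils together in the primary walls of growing plant cells. An XTH cuts a xyloglucan chain and either joins the cut end to another chain, which lets a wall be rebuilt while it stays under load, or passes the end to water, which shortens the chain. In leaves such enzymes are known mainly from cells that are still expanding, and grass walls hold less xyloglucan than those of most other flowering plants. Leaf RNA-seq values of 4 XTH loci of the grass Brachypodium distachyon are described here, namely Bradi3g18590, Bradi1g27867, Bradi1g33840 and Bradi3g52307. They were found in the deposited table by their identifiers, and make up 4 of its 33852 loci. The study had placed these genes in a group of cell wall genes that it took from a cluster of loci high in ABR8 in these samples, so that their order among the genotypes is given as a description and without a test.

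The study grew 3 inbred genotypes, which its labels rate as tolerant (ABR8), intermediate (ABR4) and susceptible (KOZ1) to drought. Each genotype had 5 groups of leaves, which were the well-watered leaves at the start (T0, day 0), the drought and the control leaves at T1 (day 4) and the drought and the control leaves at T2 (day 8). Drought here meant that water was withheld from plants 32 days old, and the control plants were watered throughout. Each of the 15 groups had 3 libraries (45 in all) from separate plants of 1 inbred line, grown in a growth chamber, and no group carries a transgene or a mutant allele. The treatment tag of 15 samples (the ABR8 samples of T1 and T2 and the KOZ1 samples of T0) goes against their titles, and the titles were followed.

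Expression is given in FPKM, the sequenced fragments of a gene scaled to the length of its transcript and to the mapped fragments of the library, so that levels of different genes can be set side by side per length. The deposited values are 1 FPKM per locus and group, estimated by the authors over the 3 libraries, with the authors' 95% limits. Single libraries were not analysed here, so no SD or n of replicates stands beside a value and the limits are its only error. In bulk leaf tissue, fewer cells of a type that expresses a gene and less of its RNA per cell cannot be told apart. For the leaf label, only Bradi5g04080 was looked at, annotated by the study as ribulose bisphosphate carboxylase, the enzyme that fixes carbon dioxide. It was at 85.3 to 617 FPKM in the 15 groups. A single gene with no other tissue beside it cannot check the label, and other marker lists were not tested. Among facts of the whole table that touch the results, the FPKM of all loci summed to 479128 in KOZ1 T2 drought leaves and to between 624700 and 759455 in the other groups.

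A pair of groups stood apart from their labels. Loci with at least 5 FPKM in ABR4 and under 0.1 FPKM in the other ABR8 groups were present in ABR8 T1 drought leaves at a median of 0.379 of their ABR4 level (87 of 87 loci above 0.1). In the reverse direction, 125 loci high in ABR8 and under 0.1 FPKM in the other ABR4 groups were looked at. They were present in ABR4 T1 drought leaves at a median of 0.364 of their ABR8 level (125 of 125 above 0.1). Absence from KOZ1 was not asked for in either direction. The same measure had a median of 0 in every KOZ1 group, over 47 to 130 loci. Between ABR8 and ABR4, no locus met the rule in their other groups, so the measure had no value there. For loci chosen as high in KOZ1, the median was 0.219 in ABR8 T1 drought leaves (45 of 79 above 0.1). It was 0.00195 in ABR4 T1 drought leaves (20 of 67 above 0.1). Absence from ABR4 was not asked for in the first of these, nor absence from ABR8 in the second. Transcripts that KOZ1 shares with them thus count, and a source in KOZ1 was not tested. A share of 1 of 3 libraries would be 0.333. Values of ABR8 and ABR4 at T1 drought are therefore given beside what a mix of 1 library of the other genotype would give, and averages also without these groups.

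The genes lie on chromosomes 1 and 3 of the v3.0 assembly, each as a locus with 1 annotated start site and no other locus overlapping it. Bradi3g18590 (LOC100846220) spans chr3:17168440-17171803, and Bradi3g52307 (LOC100833802) spans chr3:53017512-53019849. Bradi1g27867 (LOC100826830) spans chr1:23074430-23076645, and Bradi1g33840 (LOC100836532) spans chr1:29494938-29496678. The RefSeq gene models of the same assembly lie within these loci or extend past them by a few bases, except that the Bradi3g18590 locus, 3364 bases long, is more extended than its RefSeq gene of 1490 bases. All 4 are known only by their family, and which of them joins and which shortens xyloglucan was not measured.

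Bradi3g18590 was by far the most abundant member. Its mean over the 15 groups was 104 FPKM, higher than 97.9% of all loci, against 7.46 FPKM for Bradi1g27867, 5.90 FPKM for Bradi1g33840 and 3.44 FPKM for Bradi3g52307. It made up 78.1 to 91.7% of the summed FPKM of the 4 genes, so that this sum follows Bradi3g18590. The sum was 240 FPKM in ABR8 at T0, 228 in drought and 218 in control leaves at T1, and 225 in drought and 116 in control leaves at T2. In KOZ1 it was 149 FPKM at T0, 104.6 in drought and 69.2 in control leaves at T1, and 21.5 in drought and 52.1 in control leaves at T2. In ABR4 it stayed between 64.1 and 107 FPKM.

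The level of Bradi3g18590 was highest in ABR8 and lowest in droughted KOZ1. In ABR8 it was at 201 FPKM at T0, at 206 in drought and 191 in control leaves at T1, and at 202 in drought and 100.3 in control leaves at T2. In ABR4 it was at 67.4 FPKM at T0, at 57.6 in drought and 55.5 in control leaves at T1, and at 52.2 in drought and 94.1 in control leaves at T2. In KOZ1 it was at 117 FPKM at T0, at 89.7 in drought and 63.4 in control leaves at T1, and at 18.2 in drought and 46.7 in control leaves at T2. ABR8 thus held 4 groups between 191 and 206 FPKM and 1 group, the T2 control, near the level of the KOZ1 T0 and ABR4 T2 controls. The 95% limits ran from 100.9 to 312 FPKM in the highest group (ABR8 T1 drought) and from 11.1 to 25.3 FPKM in the lowest (KOZ1 T2 drought).

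Bradi1g27867 was most abundant at T0 in all 3 genotypes. In ABR8 it was at 14.5 FPKM at T0, at 9.12 in drought and 10.5 in control leaves at T1, and at 10.98 in drought and 5.95 in control leaves at T2. In ABR4 it was at 12.2 FPKM at T0, at 2.81 in drought and 4.86 in control leaves at T1, and at 9.87 in drought and 9.12 in control leaves at T2. In KOZ1 it was at 9.80 FPKM at T0, at 4.71 in drought and 3.56 in control leaves at T1, and at 0.603 in drought and 3.29 in control leaves at T2. The lower limit of the KOZ1 T2 drought value was 0 and its upper limit 1.29 FPKM, below the lower limit of every ABR8 group (2.93 to 8.53 FPKM).

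Bradi1g33840 had the largest ratio of its highest to its lowest level, 74.8-fold, between 20.0 FPKM in ABR8 at T0 and 0.268 FPKM in ABR4 T2 drought leaves. In ABR8 it was at 20.0 FPKM at T0, at 10.7 in drought and 12.8 in control leaves at T1, and at 8.25 in drought and 5.72 in control leaves at T2. In ABR4 all 5 groups were at 1.55 FPKM or less, at 1.13 at T0, at 1.54 in drought and 1.55 in control leaves at T1, and at 0.268 in drought and 1.15 in control leaves at T2. In KOZ1 it was at 14.7 FPKM at T0, at 6.46 in drought and 1.09 in control leaves at T1, and at 1.9595 in drought and 1.23 in control leaves at T2. The KOZ1 level was thus near that of ABR8 at T0 and near that of ABR4 in the later controls.

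Bradi3g52307 had the lowest mean over the 15 groups, although Bradi1g33840 was lower in all 5 ABR4 groups, and its highest value was in KOZ1. In ABR8 it was at 4.38 FPKM at T0, at 2.205 in drought and 3.63 in control leaves at T1, and at 3.86 in drought and 4.41 in control leaves at T2. In ABR4 it was at 3.86 FPKM at T0, at 5.26 in drought and 5.17 in control leaves at T1, and at 1.84 in drought and 2.26 in control leaves at T2. In KOZ1 it was at 8.19 FPKM at T0, at 3.77 in drought and 1.13 in control leaves at T1, and at 0.744 in drought and 0.910 in control leaves at T2. When the 15 levels of each gene are put in order, neighbours in the order can hardly be told apart: of 56 neighbouring pairs over the 4 genes, only 1 had limits that do not overlap, namely the KOZ1 T2 drought and control levels of Bradi3g18590.

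**Figure D1:**
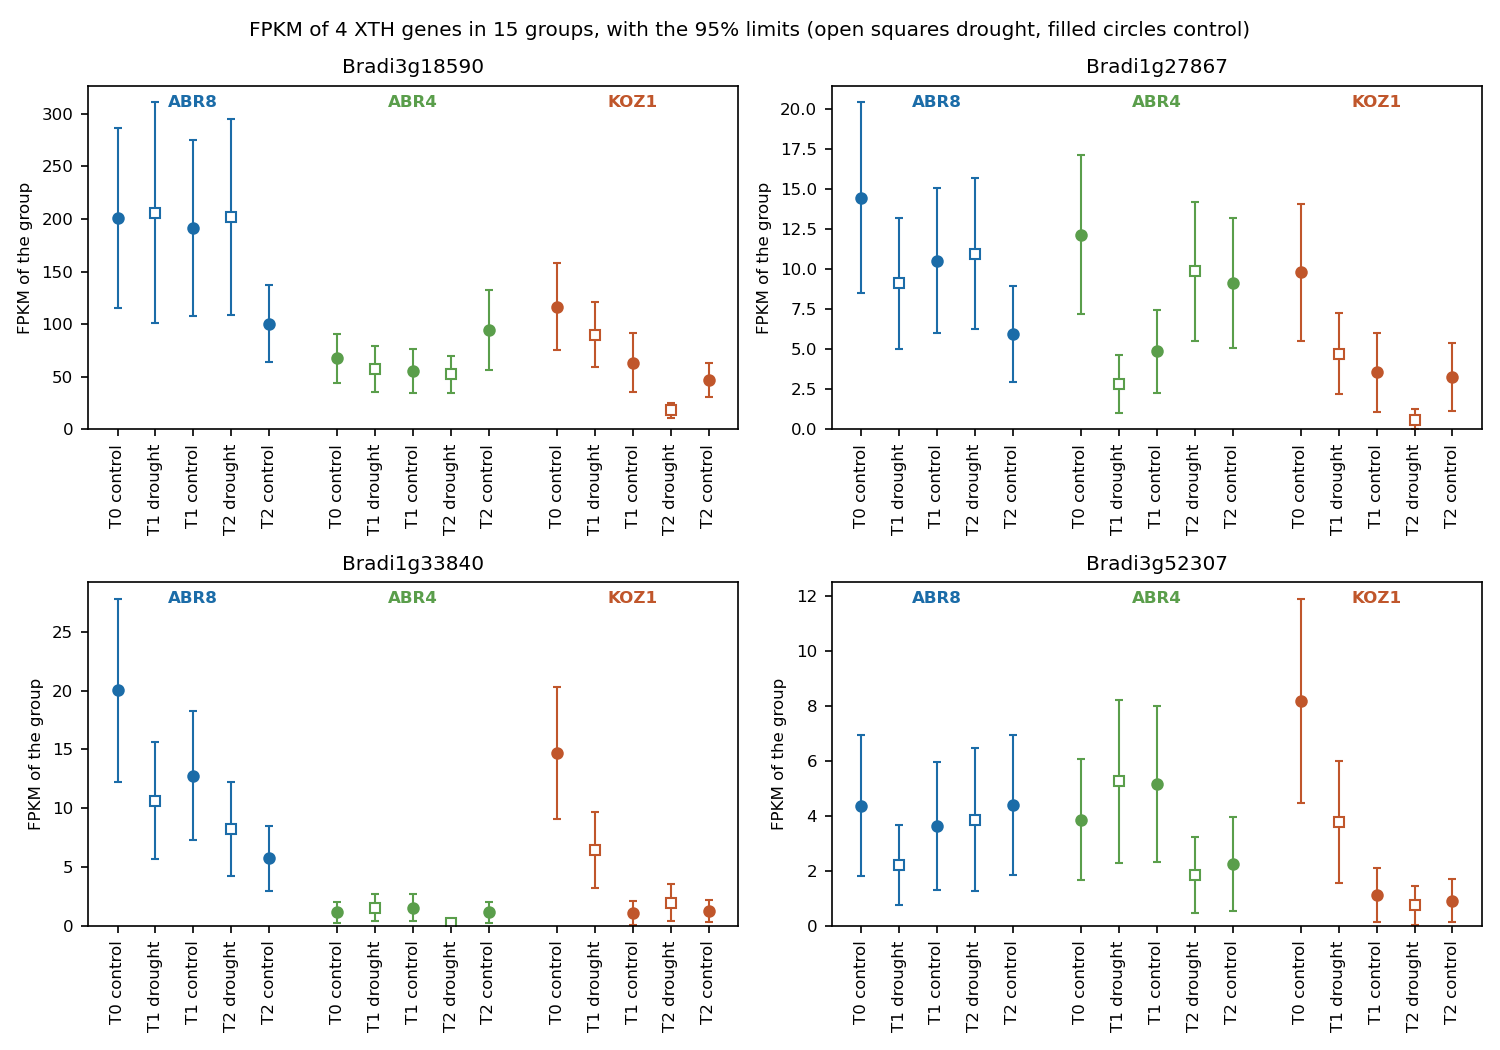
FPKM of each XTH gene (y axis, linear, starting at 0) in the 15 groups (x axis) of ABR8, ABR4 and KOZ1; open squares are drought groups, filled circles are watered groups, and bars are the authors' 95% limits. Bradi3g18590 lies at 191 to 206 FPKM in 4 ABR8 groups, Bradi1g33840 is at 1.55 FPKM or less in all ABR4 groups, and the KOZ1 levels of Bradi1g33840 and Bradi3g52307 are highest at T0.

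The genotypes were compared within each condition, as a description. Over its 5 groups ABR8 averaged 180 FPKM of Bradi3g18590, against 65.4 FPKM in ABR4 and 66.9 FPKM in KOZ1. For Bradi1g33840 the averages were 11.5 FPKM in ABR8, 1.13 FPKM in ABR4 and 5.09 FPKM in KOZ1. Bradi1g27867 averaged 10.2 FPKM in ABR8, 7.77 FPKM in ABR4 and 4.39 FPKM in KOZ1. Bradi3g52307 barely differed in its averages, with 3.70 FPKM in ABR8, 3.68 FPKM in ABR4 and 2.95 FPKM in KOZ1. ABR8 was thus above both other genotypes in all 4 averages, by 2.76-fold, 1.32-fold, 10.2-fold and 1.01-fold over ABR4 for Bradi3g18590, Bradi1g27867, Bradi1g33840 and Bradi3g52307, and by 2.69-fold, 2.32-fold, 2.26-fold and 1.25-fold over KOZ1.

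Bradi1g33840 separated ABR8 from ABR4 most steadily. Its level in ABR8 was 4.98-fold to 30.8-fold that in ABR4, and the limits did not overlap in 5 of 5 conditions. Bradi3g18590 was 1.07-fold to 3.87-fold higher in ABR8 than in ABR4, with limits apart in 4 of 5 conditions, all but the T2 control. Bradi1g27867 had limits apart only at T1 drought, and Bradi3g52307 in no condition. By condition, ABR8 lay above ABR4 with limits apart for 2 of 4 genes at T0 (4.67% of all loci), 3 in drought leaves at T1 (0.818%), 2 in control leaves at T1 (3.7%), 2 in drought leaves at T2 (3.57%) and 1 in control leaves at T2 (2.99%).

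Against KOZ1 the difference was confined to leaves after T0, for limits that do not overlap. At T0 it was seen for 0 of 4 genes (2.6% of all loci), and Bradi3g52307 was lower in ABR8, at 4.38 FPKM against 8.19 FPKM in KOZ1. It was seen for 0 genes in drought leaves at T1 (2.25% of all loci), for 2 in control leaves at T1 (3.92%), for 3 in drought leaves at T2 (8.31%) and for 3 in control leaves at T2 (3.41%). The largest ratios of ABR8 to KOZ1 were 18.2-fold for Bradi1g27867 in drought leaves at T2, 11.7-fold for Bradi1g33840 in control leaves at T1 and 11.1-fold for Bradi3g18590 in drought leaves at T2. From T0 alone, the ratio of ABR8 to KOZ1 was 1.72 for Bradi3g18590, 1.48 for Bradi1g27867, 1.36 for Bradi1g33840 and 0.535 for Bradi3g52307.

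ABR4 and KOZ1 had no fixed order. In drought leaves at T2, ABR4 was above KOZ1 with limits apart for 2 genes (5.13% of all loci), with Bradi3g18590 at 52.2 FPKM against 18.2 FPKM in KOZ1 and Bradi1g27867 at 9.87 FPKM against 0.603 FPKM in KOZ1. At T0, ABR4 was below KOZ1 with limits apart for 1 gene (3.05%), Bradi1g33840, which was at 1.13 FPKM against 14.7 FPKM in KOZ1. The same gene was also lower in ABR4 in drought leaves at T1 (1.83% of all loci), and Bradi3g52307 was higher in ABR4 in control leaves at T1 (2.18%). In control leaves at T2 ABR4 was above KOZ1 with limits apart for 0 genes (1.88%).

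**Figure D2:**
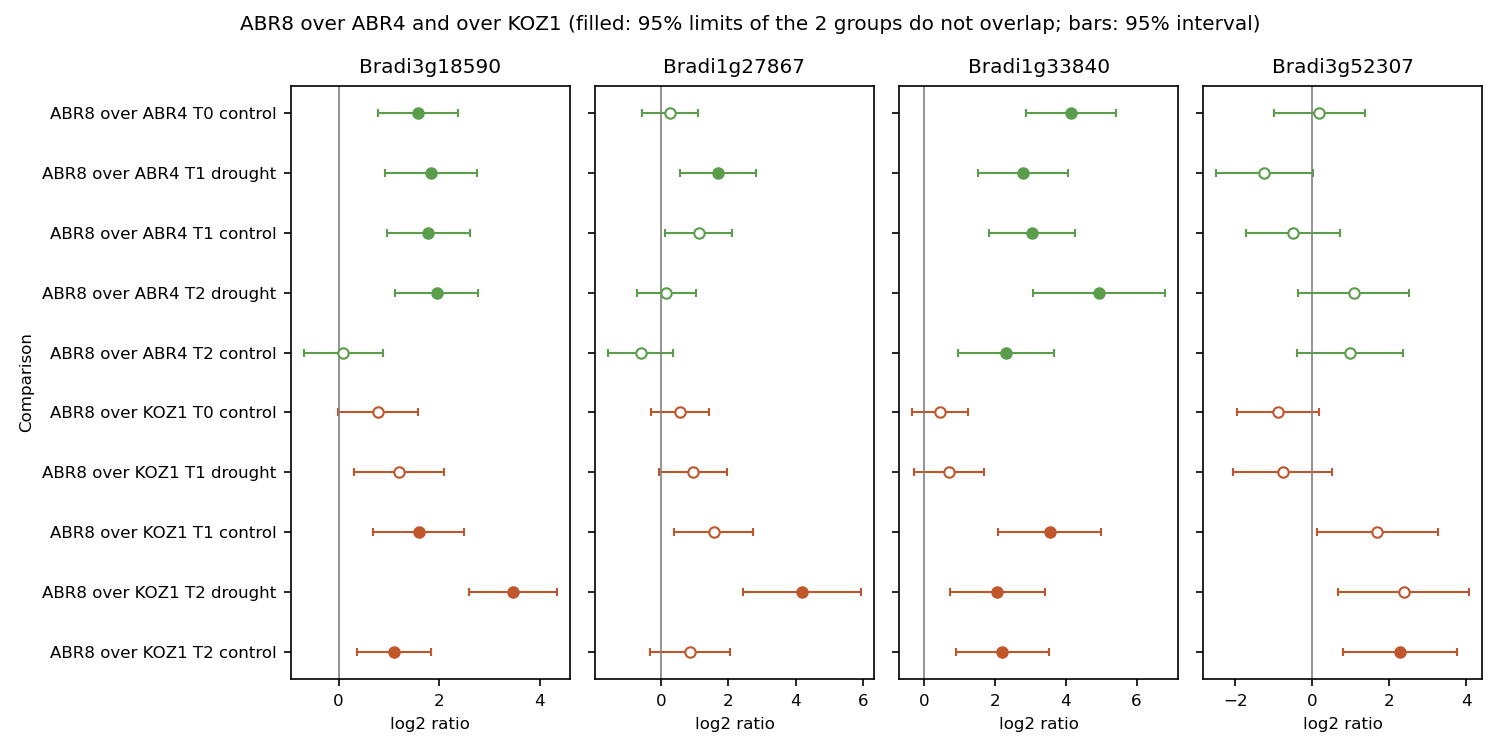
Log2 ratio (x axis) of the FPKM in ABR8 over that in ABR4 (upper rows) and in KOZ1 (lower rows) in each condition (y axis), with 95% intervals from the authors' limits; filled points mark pairs whose own limits do not overlap. All 5 points of Bradi1g33840 against ABR4 are filled, and no point against KOZ1 at T0 is filled.

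The T1 drought levels were set beside a mix of the T1 controls with 1 library of 3 from the other genotype. For Bradi1g33840 this mix would stand at 5.29 FPKM in ABR4, whereas the T1 drought value was 1.54 FPKM with an upper limit of 2.68 FPKM. For Bradi3g18590 it would stand at 100.7 FPKM in ABR4, whereas the value was 57.6 FPKM with an upper limit of 79.5 FPKM. In ABR8 the mix would be at 146 FPKM of Bradi3g18590 and 9.03 FPKM of Bradi1g33840, against measured values of 206 and 10.7 FPKM, both with the mix inside their limits. For Bradi3g52307 in ABR8 the mix would be at 4.14 FPKM, above the upper limit of 3.67 FPKM of the measured 2.205 FPKM. For Bradi1g27867 in ABR4 the mix would be at 6.75 FPKM, above the upper limit of 4.62 FPKM of the measured 2.81 FPKM. In ABR8 it would be at 8.64 FPKM against a measured 9.12 FPKM, inside the limits. For Bradi3g52307 in ABR4 it would be at 4.65 FPKM against 5.26 FPKM, also inside the limits. In ABR4 at T1 drought, Bradi1g33840, Bradi3g18590 and Bradi1g27867 were thus below the level of this mix. The mix is built from control levels and so takes drought as changing nothing, and an exchange of libraries was not tested with it. Without the T1 drought groups, the ABR8 averages were 2.58-fold those of ABR4 for Bradi3g18590, 1.16-fold for Bradi1g27867, 11.4-fold for Bradi1g33840 and 1.24-fold for Bradi3g52307, and 2.83-fold, 2.43-fold, 2.47-fold and 1.48-fold those of KOZ1 in the same gene order.

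Watered leaves were compared over the 8 days within each genotype, which asks how the genes changed in leaves with no water deficit. The test was a z-test on log FPKM with standard errors taken from the authors' limits and Benjamini-Hochberg adjustment over all loci, and calls needed both an adjusted p no higher than 0.05 and a 2-fold change. It is a normal approximation that takes the authors' limits as they stand, and an exact test over libraries could not be run on 1 value per group. Of 36 gene tests 6 were called, and all 6 were falls, 5 of them in KOZ1 and 1 in ABR8. The study had picked the genes on these samples, the control groups among them, so neither this count nor its direction is independent evidence. All 6 calls use KOZ1 T0 or ABR8 T2 samples, whose treatment tags go against the titles that were followed. Other comparisons with KOZ1 T0 leaves rest on the same choice of titles. In this test Bradi1g33840 and Bradi3g52307 fell early in KOZ1, already between T0 and T1.

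In KOZ1 at T1 against T0, 2 of 4 genes fell, where 0.854% of all loci fell. Bradi1g33840 fell to 1.09 FPKM in the T1 controls, against 14.7 FPKM at T0, a log2 change of -3.75 (SE 0.73, adjusted p of 9.15e-05). Bradi3g52307 fell to 1.13 FPKM in the T1 controls, against 8.19 FPKM at T0, a log2 change of -2.86 (SE 0.73, adjusted p of 0.0108). Bradi1g27867 and Bradi3g18590 did not pass, with log2 changes of -1.46 and -0.88.

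In KOZ1 at T2 against T0, 3 of 4 genes fell, where 1.33% of all loci fell. Bradi1g33840 stood at 1.23 FPKM in the T2 controls, a log2 change of -3.57 from T0 (SE 0.63, adjusted p of 4.37e-06). Bradi3g52307 stood at 0.910 FPKM, a log2 change of -3.17 (SE 0.71, adjusted p of 0.00119). Bradi3g18590 stood at 46.7 FPKM in the T2 controls, against 117 FPKM at T0, a log2 change of -1.32 (SE 0.36, adjusted p of 0.0202). Bradi1g27867 had a log2 change of -1.58 and an adjusted p of 0.185. Between T1 and T2 none of the 4 genes was called in KOZ1 (0.0925% of all loci were), and 0 passed 2-fold and an unadjusted p of 0.05 (1.03%).

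In ABR8 a fall was called for 1 gene, at T2. At T2 against T0, Bradi1g33840 fell to 5.72 FPKM in the T2 controls, against 20.0 FPKM at T0, a log2 change of -1.81 (SE 0.46, adjusted p of 0.00677), where 1.54% of all loci fell. Bradi1g27867, at 5.95 against 14.5 FPKM at T0, and Bradi3g18590, at 100.3 against 201 FPKM at T0, had log2 changes of -1.28 and -1.005 and adjusted p of 0.172 and 0.272. Bradi3g52307 was at 4.41 FPKM in the T2 controls and 4.38 FPKM at T0, a log2 change of 0.01 with a 95% interval from -1.18 to 1.20. At T1 against T0 and at T2 against T1, 0 of 4 genes were called in ABR8 (0.257% and 0.272% of all loci were). At 2-fold and an unadjusted p of 0.05, 0 genes passed in the first of these (2.52% of all loci) and 1 in the second (1.97%), Bradi1g33840 with a log2 change of -1.16.

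In ABR4 none of the 12 tests was called. The shares of all loci called were 0.285% at T1 against T0, 1.25% at T2 against T0 and 0.0387% at T2 against T1. At 2-fold and an unadjusted p of 0.05, 1 gene passed at T1 against T0 (1.45% of all loci), Bradi1g27867 with 4.86 FPKM in the T1 controls against 12.2 FPKM at T0 and a log2 change of -1.32, and 0 passed at T2 against T0 (3.44%) and at T2 against T1 (0.666%). Bradi1g33840, the gene with the largest falls in KOZ1, was already at 1.13 FPKM in ABR4 at T0. Whether the change in watered leaves differs between genotypes was not tested.

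**Figure D3:**
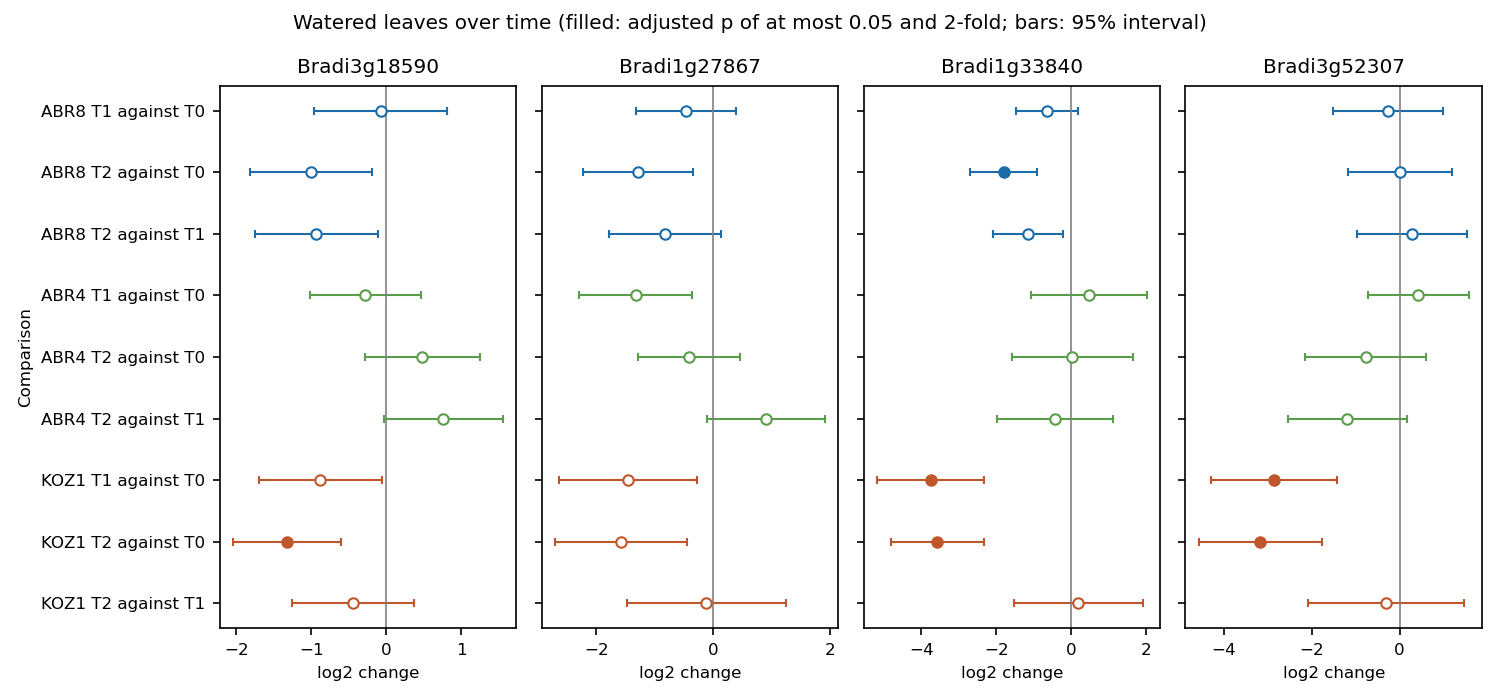
Log2 change of each gene (x axis) in watered leaves of ABR8, ABR4 and KOZ1 between T0, T1 and T2 (y axis), with 95% intervals; filled points passed an adjusted p of 0.05 and a 2-fold change. The 6 filled points are all left of 0, with Bradi1g33840 and Bradi3g52307 lowest in KOZ1.

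Drought and control leaves of the same genotype and time were compared by the same test, which asks how the genes responded to the loss of water. Of 24 gene tests 1 was called, a fall of Bradi3g18590 in KOZ1 at T2. Since the study had picked the 4 genes on these samples, neither this count nor its direction is independent evidence. At T2 the 4 genes had a median log2 change of 0.71 in ABR8, of -0.57 in ABR4 and of -0.83 in KOZ1. Only Bradi3g18590 was positive in ABR8 and negative in both other genotypes, and Bradi3g52307 was negative in all 3, though positive in KOZ1 with FPKM at the same sum (0.36).

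In KOZ1 at T2, Bradi3g18590 fell to 18.2 FPKM in drought leaves (limits 11.1 to 25.3), against 46.7 FPKM in control leaves (limits 30.4 to 62.9), and the limits did not overlap. The log2 change was -1.36 (SE 0.39), with an adjusted p of 0.00776, and 4.57% of all loci fell in this comparison (8.34% were called in either direction). The call depended on the way of scaling. With FPKM brought to a common median in each group it stood, with a log2 change of -1.48 and an adjusted p of 0.00279. With FPKM brought to the same sum in each group the log2 change was -0.71 and the adjusted p 0.215. This scaling shifts every locus by the same amount, and the median log2 change of all loci was 0.06 without it and 0.71 with it.

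Bradi1g27867 showed the larger estimate in the same leaves but missed the threshold. It was at 0.603 FPKM in drought leaves and 3.29 FPKM in control leaves of KOZ1 at T2, a log2 change of -2.45 (SE 0.97) with an adjusted p of 0.106. Bradi1g33840 (1.9595 FPKM in drought and 1.23 FPKM in control leaves) and Bradi3g52307 (0.744 and 0.910 FPKM) had log2 changes of 0.67 and -0.29, and the second of these signs turned to positive with FPKM at the same sum (0.36). Bradi1g13760, annotated as 9-cis-epoxycarotenoid dioxygenase-like, an enzyme family that makes the stress hormone abscisic acid, was at 19.7 FPKM in these drought leaves and 0.212 FPKM in their controls. It was at 0.863 FPKM in drought and 1.14 FPKM in control leaves of ABR8 at T2, and at 3.39 FPKM in drought and 0.678 FPKM in control leaves of ABR4 at T2. Water status was not measured here, and the part of it in the XTH levels was not tested.

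In KOZ1 at T1 all 4 genes were higher in drought than in control leaves by their estimates, and 0 of 4 passed (0.459% of all loci did), with 2 of 4 past 2-fold and an unadjusted p of 0.05 (2.1% of all loci). Bradi1g33840 was at 6.46 FPKM in drought leaves (limits 3.21 to 9.70) and 1.09 FPKM in control leaves (limits 0.0939 to 2.09), a log2 change of 2.57 (SE 0.77) with an adjusted p of 0.145, and these limits did not overlap. Bradi3g52307 was at 3.77 FPKM in drought and 1.13 FPKM in control leaves, a log2 change of 1.74 (SE 0.78) with an adjusted p of 1. Both were higher at T0 than in either T1 group, at 14.7 and 8.19 FPKM. The control leaves of KOZ1 at T1 enter both this comparison and the one over time in watered leaves, so the fall in watered leaves and the excess in drought leaves are not independent.

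In ABR8 at T2 a similar order was seen for the abundant genes. These groups follow the sample titles, which the treatment tags of the same samples go against. Bradi3g18590 was at 202 FPKM in drought leaves (limits 109 to 295), against 100.3 FPKM in control leaves (limits 63.5 to 137), a log2 change of 1.01 (SE 0.43) with an adjusted p of 1.00 and an unadjusted p of 0.0201. Bradi1g27867 was at 10.98 FPKM in drought and 5.95 FPKM in control leaves, a log2 change of 0.88 (SE 0.49). Bradi1g33840 had a log2 change of 0.53 and Bradi3g52307 of -0.19. None of the 4 genes was called, where 0.0382% of all loci were, and 1 of them, Bradi3g18590, was past 2-fold and an unadjusted p of 0.05 (0.649% of all loci). By its own Cuffdiff test, the study had listed Bradi3g18590 among the wall genes changed over 2-fold by drought in ABR8 at T2. That test called more loci in ABR8 than the z-test used here, so the missing call is not evidence of no change.

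The levels of drought and control leaves were also set beside T0, as a description. In KOZ1 at T1, Bradi1g33840 stood at 44.0% of its T0 level in drought leaves and at 7.43% in control leaves. Bradi3g52307 stood at 46.0% of its T0 level in drought leaves and at 13.8% in control leaves. All 4 genes of KOZ1 at T1 were nearer to T0 in drought than in control leaves on the log scale, as were 59.3% of all loci above 0 in the 3 groups. In ABR8 at T2, Bradi3g18590 stood at 100.2% of its T0 level in drought leaves and at 49.8% in control leaves, and 3 of 4 genes were nearer to T0 in drought than in control leaves, as were 53.9% of all loci. In KOZ1 at T2, Bradi3g18590 stood at 15.6% of its T0 level in drought leaves and 40.0% in control leaves, and Bradi1g27867 at 6.15% in drought leaves and 33.5% in control leaves. There 1 of 4 genes was nearer to T0 in drought leaves, beside 34.1% of all loci. The count was 1 of 4 in ABR8 at T1 (45.3% of all loci), 2 of 4 in ABR4 at T1 (38.1%) and 2 of 4 in ABR4 at T2 (46.3%).

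The remaining comparisons called 0 of 4 genes. In ABR4 at T2, where 0.0698% of all loci were called, Bradi3g18590 was at 52.2 FPKM in drought and 94.1 FPKM in control leaves (log2 change -0.85, SE 0.39), and Bradi1g33840 was at 0.268 FPKM in drought and 1.15 FPKM in control leaves (log2 change -2.10, SE 1.06). Each passed an unadjusted p of 0.05, the first of them at under 2-fold, and both had an adjusted p of 1.00, so that 1 gene was past 2-fold and the unadjusted p (0.951% of all loci). At T1 the estimates of the 4 genes lay between -0.79 and 0.05 in ABR4 and between -0.72 and 0.11 in ABR8, on the log2 scale, where 0.234% and 0.037% of all loci were called. At 2-fold and an unadjusted p of 0.05, 0 genes passed in either genotype (1.66% and 0.931% of all loci). These T1 intervals were wide: that of Bradi3g18590 ran from -0.86 to 1.08 in ABR8 and from -0.72 to 0.82 in ABR4. The T1 values carry the doubt on the drought groups of ABR8 and ABR4 given above. Taken apart as if 1 of 3 libraries had been exchanged, the log2 change in ABR8 was 0.89 for Bradi3g18590, 0.55 for Bradi1g27867 and 0.63 for Bradi1g33840, the last 2 with the sign turned, and that of Bradi3g52307 in ABR4 was 0.69.

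**Figure D4:**
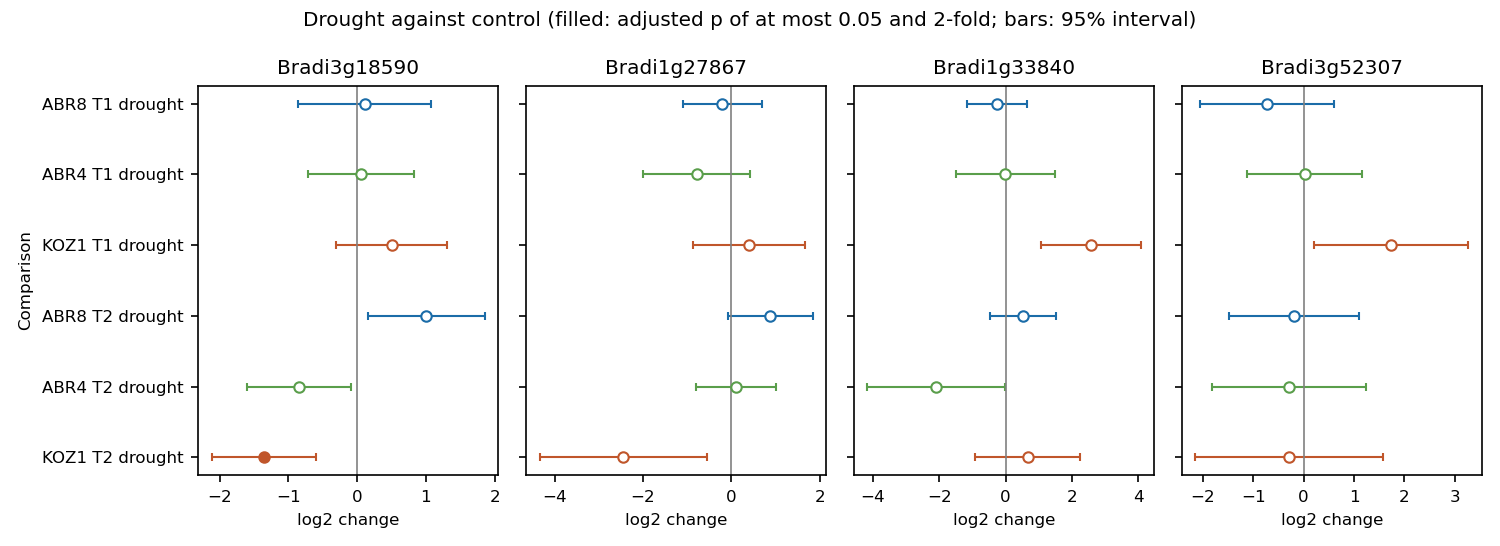
Log2 change of each gene (x axis) in drought against control leaves, for the 3 genotypes at T1 and T2 (y axis), with 95% intervals; the filled point passed an adjusted p of 0.05 and a 2-fold change. The only filled point is Bradi3g18590 in KOZ1 at T2, at -1.36, while the same gene is at 1.01 in ABR8 at T2.

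The drought changes were then compared with each other, since a call in 1 genotype and none in another is not a difference. Of 36 tests 3 passed an adjusted p of 0.05. The study had picked the genes on these samples, so these differences are not independent evidence either. At T2, the drought change of Bradi3g18590 in ABR8 (1.01) exceeded that in KOZ1 (-1.36) by 2.37 on the log2 scale (SE 0.58, adjusted p of 0.00223), and that of Bradi1g27867 in ABR8 (0.88) exceeded that in KOZ1 (-2.45) by 3.33 (SE 1.08, adjusted p of 0.0444), where 4.95% of all loci passed. Within KOZ1, the change of Bradi3g18590 at T2 (-1.36) was below that at T1 (0.50) by a difference of -1.86 (SE 0.57, adjusted p of 0.0260), where 4.78% of all loci passed. With FPKM at the same sum none of the 3 passed, with adjusted p of 0.0684, 0.124 and 0.234. With a common median 3 of the 36 tests passed.

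The other contrasts between genotypes did not pass. Between ABR8 and ABR4 at T2, the difference for Bradi3g18590 was 1.86 (95% interval 0.72 to 3.00, adjusted p of 0.475), where 0.0634% of all loci passed, and 2 of 4 genes had an unadjusted p under 0.05 (1.63% of all loci). Between ABR8 and KOZ1 at T1, the difference for Bradi1g33840 was -2.83 (95% interval -4.59 to -1.07, adjusted p of 0.296), where 0.301% of all loci passed, and 2 of 4 genes had an unadjusted p under 0.05 (2.15%). Between ABR4 and KOZ1 at T2, that for Bradi1g27867 was 2.56 (95% interval 0.46 to 4.66, adjusted p of 0.307), where 2.23% passed, and 2 of 4 genes had an unadjusted p under 0.05 (8.67%).

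At T1, ABR8 against ABR4 gave 0 of 4 genes (0.0976% of all loci) and 0 unadjusted (1.91%), and ABR4 against KOZ1 gave 0 of 4 (0.151%) and 1 unadjusted (1.73%), Bradi1g33840. T2 against T1 gave 0 of 4 genes within ABR8 (0.0213% of all loci) and within ABR4 (0.0132%), and 0 unadjusted in both (0.836% and 1.18%). The intervals stay wide at these levels of error. That of Bradi3g18590 for ABR8 minus ABR4 at T1 ran from -1.18 to 1.30, and that of Bradi3g52307 for ABR8 minus KOZ1 at T2 from -2.16 to 2.36.

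The 4 profiles were only partly alike. Over the 15 groups, on the scale of log2(FPKM + 1), Pearson's r was 0.80 between Bradi3g18590 and Bradi1g27867 and 0.77 between Bradi3g18590 and Bradi1g33840, and it lay between 0.43 and 0.50 for the other 4 pairs. These are descriptions over groups that share genotypes and times. Among 15475 loci compared in the same way, the most similar to Bradi3g18590 were Bradi2g11860 (r = 0.976), a pectin methylesterase gene, Bradi2g24220 (0.973) and Bradi4g20197 (0.966), of glycosyl hydrolase family GH3. For Bradi1g27867 they were the expansin gene Bradi2g53580 (0.952), Bradi1g73935 (0.945) and Bradi4g39920 (0.930). Pectin methylesterases remove methyl groups from wall pectin, and expansins loosen walls without cutting their polymers.

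All 6 of these genes were lowest in KOZ1 T2 drought leaves, and 4 were highest in ABR8 at T0. Bradi1g33840 was nearest to Bradi4g41300 (r = 0.970), Bradi3g20980 (0.968) and Bradi2g13800 (0.960), each of them highest in ABR8 at T0 and lowest in a drought group of ABR4. Bradi3g52307 had the loosest matches, with Bradi5g14298 (0.929), Bradi2g33657 (0.863) and Bradi3g10730 (0.842). The first and the second of these were, like Bradi3g52307, highest in KOZ1 at T0 and lowest in KOZ1 T2 drought leaves. Bradi2g11860, Bradi4g20197 and Bradi2g53580 belong to the same group of wall genes of the study as the XTHs, and were thus chosen on the same samples.

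From that group, 5 other genes were taken as xyloglucan genes. Bradi3g58040 and Bradi3g10230 are of family GT37, and the study names them as putative xyloglucan fucosyltransferases, which would add fucose to side chains. Bradi1g64560 is of GT34 (xyloglucan 6-xylosyltransferase, which adds the xylose branches). Bradi4g35500 is of GH29 (a putative fucosidase, which removes fucose) and Bradi1g37450 of GH35 (the family of plant beta-galactosidases). The GH29 and GH35 genes were taken by family, and whether any of the 5 acts on xyloglucan was not measured. Under drought 1 of the 5 was called: Bradi3g58040 fell to 7.15 FPKM in drought leaves of KOZ1 at T2, against 18.6 FPKM in control leaves, a log2 change of -1.38 (SE 0.40, adjusted p of 0.0105), where 4.57% of all loci fell. With FPKM at the same sum it did not pass either, with a log2 change of -0.73 and an adjusted p of 0.223, nor with an adjustment over all drought comparisons together (adjusted p of 0.0519). With a common median it passed (adjusted p of 0.00403). Over time in watered leaves 1 of the 5, Bradi1g37450, was called, in KOZ1 at T1 (0.854% of all loci fell) and at T2 (1.33%) and in ABR8 at T2 (1.54%) against T0, the comparisons in which Bradi1g33840 was called. It stood at 1.91 FPKM in the T1 controls and 2.08 FPKM in the T2 controls of KOZ1, against 10.9 FPKM at T0, log2 changes of -2.51 and -2.39 (adjusted p of 0.000292 and 4.71e-05). In ABR8 it stood at 4.99 FPKM in the T2 controls, against 16.0 FPKM at T0, a log2 change of -1.68 (adjusted p of 0.00529). Like Bradi1g33840 it was low in ABR4, at 1.58 to 3.19 FPKM in all 5 groups.

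The XTHs were set beside the 46 other wall genes of the study's group, which include these 5, without a test between the lists. In drought leaves of KOZ1 at T2, 10 of 44 tested wall genes fell and 0 rose (4.57% of all loci fell), with a median log2 change of -1.27, beside -0.83 for the XTHs and 0.06 for all loci. These values are given without scaling only. In this comparison the calls of Bradi3g18590 and Bradi3g58040 did not pass with FPKM at the same sum. In KOZ1 at T1 the median was 0.69 over the wall genes (0 of 45 called), beside 1.12 for the XTHs, and in ABR8 at T2 it was 0.56 (0 of 46 called), beside 0.71. In ABR4 at T2 it was -0.61 (0 of 46 called), beside -0.57. In watered leaves of KOZ1, 12 of 44 wall genes had fallen at T1 (0.854% of all loci) and 17 of 44 at T2 (1.33%), with medians of -1.28 and -1.32, beside -2.16 and -2.37 for the XTHs and 0.02 and 0.01 for all loci. In ABR8 at T2 against T0, 13 of 46 fell and 1 rose (1.54% of all loci fell), with a median of -0.80, beside -1.14 for the XTHs. The averages over 5 groups were at least 2-fold higher in ABR8 than in ABR4 for 2 of 4 XTHs and 22 of 46 wall genes, and than in KOZ1 for 3 of 4 XTHs and 22 of 46 wall genes, beside 8.01% and 7.83% of the 17527 loci with a mean of at least 1 FPKM. The study chose these lists on these samples, from loci it had found changed by over 2-fold and that were high in ABR8. Their shares over the genotypes follow from that choice, and their counts under drought and over time are not independent of it.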

How the data were processed

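Leaf RNA-seq libraries (45, in 15 groups of 3) were trimmed by the authors with Trim Galore 0.4.1, mapped with TopHat2 2.1.1 and Bowtie2 2.2.9 to the v3.0 assembly, and run through Cufflinks 2.2.1 and Cuffdiff. The deposited table holds FPKM per locus and group with 95% limits, which the authors estimated from the 3 libraries together; read counts and depth per library were not used here, so no counting interval or limit for a value of 0 is given, and the limits carry the precision. A sample's group was taken from its title. Loci were matched by identifier, and RefSeq symbols came from the v3.0 gene table. Starts were moved to counting from 1.

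Standard errors were taken as the upper limit minus the FPKM value, divided by 1.96. Groups were compared by a 2-sided z-test on the natural log of FPKM (delta method, or on the difference in FPKM where 1 group was at 0), with Benjamini-Hochberg adjustment over the 25772 to 27059 loci tested in a drought comparison and likewise in the others. No filter on low values and no pseudocount were used, except log2(FPKM + 1) for profiles. For differences between drought changes the z-test was run on the difference of the log changes. Since the p-values rest on the authors' model of the spread between plants, they cannot be checked against single libraries. The test was tried on simulated data, where it missed a part of the changes put in, so a missing call is not evidence of no change. The work was done in Python 3.11.15 (matplotlib 3.10.9, pandas 2.3.3, scipy 1.17.1, numpy 2.4.6).

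The members and lists were chosen with earlier results of these data known. Named genes were the 4 members, the other xyloglucan genes called under drought, and the 3 loci most correlated with each member among those with 1 identifier and a mean of at least 1 FPKM; Bradi1g37450 was named after its values were seen. Alternatives were another adjustment, the unadjusted p, limits that do not overlap, a test on FPKM differences, a 4-fold threshold, a minimum of 1 FPKM, pseudocounts of 1 and 0.1, scaling to a common median or sum, the upper limit read as 2 standard errors, and subsets of groups. Further XTH loci, promoter motifs and marker lists taken from gene descriptions were not analysed here.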

Additional observations from a re-analysis of the deposited data

Results flagged for a closer look

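In 3 tests the drought change of an XTH gene differed between genotypes or times. The study had picked the genes on these samples, so these differences are not independent evidence. At T2 the log2 drought change of Bradi3g18590 was higher in ABR8 than in KOZ1 by 2.37 (95% interval 1.23 to 3.51), from 202 FPKM in drought and 100.3 FPKM in control leaves of ABR8 and 18.2 FPKM in drought and 46.7 FPKM in control leaves of KOZ1. That of Bradi1g27867 was higher in ABR8 than in KOZ1 by 3.33 (95% interval 1.21 to 5.46), with 0.603 FPKM in drought leaves of KOZ1 as the value with the largest relative error. Within KOZ1 the drought change of Bradi3g18590 at T2 differed from that at T1 by -1.86 (95% interval -2.97 to -0.75). Over the alternatives the adjusted p ran from 0.000843 to 0.0684 for the first, from 0.0292 to 0.136 for the second and from 0.0110 to 0.234 for the third. All 3 use KOZ1 T2 drought leaves, whose summed FPKM of 479128 was the lowest of the 15 groups. The part of that sum in these differences was not tested beyond the scaling. Differences from ABR8 also use its T2 samples, whose treatment tags go against the titles that were followed.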

How the results depend on the processing

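The drought call of Bradi3g18590 in KOZ1 at T2 stood under the adjustment over all comparisons, the test on FPKM differences, the minimum of 1 FPKM, both pseudocounts, the common median and the upper limit read as 2 standard errors. The count of drought calls was 6 with the unadjusted p, 2 by limits that do not overlap, 0 at 4-fold and 0 with FPKM at the same sum, against 1. Of the leaf age calls, 6 in number, there were 12 with the unadjusted p and 4 to 7 under the other alternatives. Response differences numbered 3, against 1 with an adjustment over all comparisons together, 11 with the unadjusted p and 0 with FPKM at the same sum. They stayed at 3 with the common median and with the upper limit read as 2 standard errors. Of the 8 ratios of ABR8 to another genotype, 5 were at least 2-fold, against 2 from T0 alone and 4 or 5 in the other settings. With FPKM at the same sum the log2 drought change turned to -0.049 for Bradi3g18590 and -0.076 for Bradi3g52307 in ABR4 at T1, and to 0.36 for Bradi3g52307 in KOZ1 at T2. Taking the T1 drought groups apart as if 1 of 3 libraries had been exchanged turned Bradi1g27867 to 0.55 and Bradi1g33840 to 0.63 in ABR8 and moved Bradi3g18590 in ABR8 from 0.11 to 0.89 and Bradi3g52307 in ABR4 from 0.02 to 0.69; the same arithmetic gave negative FPKM, and so no value, for 3 genes in ABR4 and for Bradi3g52307 in ABR8. The cause of these changes was not tested. Pseudocounts and the common median changed neither the sign nor the call of the 24 drought changes, although Bradi1g33840 in ABR4 at T2 went under 2-fold with a pseudocount of 1 (-0.76, against -2.10). The alternatives for further members of the XTH family were not run, since no other XTH locus was analysed here. No paired analysis was possible because the deposited values are 1 per group, and for the same reason no library could be left out. Depth per library was not used here, and the relative standard error reached 61.1% for Bradi1g33840 in ABR4 T2 drought leaves.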
